A study of Mus musculus with 9 samples.

Results

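The genes described here are 10 members of the axon guidance families, the slits *Slit2* and *Slit3*, their receptors *Robo1* and *Robo2*, the netrin *Ntn1* and its receptor *Unc5c*, the class 3 semaphorins *Sema3a* and *Sema3d*, and the neuropilins *Nrp1* and *Nrp2*. They were chosen by symbol, 10 of the 32285 mouse genes in the count matrices, and all were found in each of the 9 libraries. The libraries are single-cell RNA-seq profiles of forelimb bud pairs at embryonic day E10.75 (37 to 39 somites) on a Swiss Albino background, each from 1 embryo, with 3 libraries per genotype. The genotypes are wild type (Wt), *EC1CRM8*Δ/Δ, called *E1C8*Δ/Δ here, and *EC1CRM5*Δ/Δ, called *E1C5*Δ/Δ. The mutants are homozygous for deletions of enhancers of *Grem1*, which encodes a secreted BMP antagonist. EC1 is lost in both, together with CRM8 in the first and CRM5 in the second, and both form limbs that lack an anterior digit. The comparison asks which genes differ between mutant and Wt limb buds before the digits form.

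Slits, netrins and class 3 semaphorins are secreted cues, first known for steering growing axons and also active on migrating cells and vessels. Slits bind Robo receptors, Netrin-1 attracts through DCC and repels through UNC5 receptors, and class 3 semaphorins bind neuropilins that signal together with plexins. Neuropilins also bind VEGF and take part in the growth of blood vessels. In limb buds, motor and sensory axons and muscle progenitors grow or migrate into a mesenchyme that expresses many of these cues.

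The 9 libraries held 592 to 8699 cells after filtering, 44654 in all, of which 30954 were mesenchymal, 396 to 5945 per library. Cells were assigned to lineages when a cell thinned to 10000 unique molecular identifiers (UMIs) had UMIs of at least 3 of the 6 markers of 1 lineage only. Mesenchymal cells were further assigned to 11 domain gates, named after their genes or after a position or cell type read from those genes. A cell that passed several domain gates was counted in none of them, nor among the cells outside all gates. A gate is a rule on UMIs of a few marker genes and not a cluster. Levels are counts per 1000000 UMIs (CPM) of the summed cells of a gate in a library, and a library entered a gate with 20 or more cells. The assay counts 3′ ends, so a level is compared between cells and genotypes and never between genes. *Grem1* in mesenchyme was 44.4, 29.1 and 29.9 CPM in Wt, 12.1, 11.2 and 14.1 CPM in *E1C8*Δ/Δ and 18.2, 16.1 and 25.5 CPM in *E1C5*Δ/Δ. All 6 mutant libraries were below all Wt libraries (log2 fold change of the mutants together -1.11 ± 0.15 SE, edgeR adjusted p = 0.0067). *E1C8*Δ/Δ alone differed by -1.49 ± 0.19 (adjusted p = 0.0028), while *E1C5*Δ/Δ alone missed the threshold (-0.74 ± 0.18, adjusted p = 0.076). The embryo's sex, read from *Xist* and Y-linked genes, was not balanced: the 3 Wt libraries were male, as were 1 *E1C8*Δ/Δ and 1 *E1C5*Δ/Δ library, and the other 4 mutant libraries were female. Some libraries held a low level of the other sex's genes. *Xist* was at 21.2 CPM in Wt library 1, beside 155 CPM of Y-linked genes, and at 8.07 CPM in *E1C8*Δ/Δ library 3, against 0.0512 to 0.105 CPM in the other male libraries and 722 to 1004 CPM in the female ones. Y-linked genes were at 3.49 CPM in the female *E1C8*Δ/Δ library 1, against 0.0170 to 0.0463 CPM in the other female libraries. Where this signal came from was not tested. Autosomal genes alone were tested, and the guidance gene differences called between mutant and Wt mesenchyme are also given within the male libraries. These are part of the same 9 libraries, with 1 library per mutant, so they are no independent check. For *Grem1* the value there was -1.12 (adjusted p = 0.11), and with sex as a term -1.11 (adjusted p = 0.11).

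The sequences shown are those before the start sites of *Robo2* and *Sema3d*, since these are the members that were lower in *E1C5*Δ/Δ mesenchyme. *Robo2* lies on chromosome 16 at 73891839 to 74411825 on the minus strand and *Sema3d* on chromosome 5 at 12383385 to 12588948 on the plus strand (mm10, GENCODE). Each run is the 250 bases upstream of a RefSeq start site (GRCm38.p6), written in the direction of transcription with CG dinucleotides in capitals, for *Robo2* at chr16:74411826-74412075 on the minus strand and for *Sema3d* at chr5:12382916-12383165 on the plus strand.
*Robo2*: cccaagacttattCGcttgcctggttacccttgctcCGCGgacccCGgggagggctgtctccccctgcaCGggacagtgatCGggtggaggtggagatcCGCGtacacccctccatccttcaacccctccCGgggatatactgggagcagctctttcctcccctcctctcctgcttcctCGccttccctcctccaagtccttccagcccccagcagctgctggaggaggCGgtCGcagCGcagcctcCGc
*Sema3d*: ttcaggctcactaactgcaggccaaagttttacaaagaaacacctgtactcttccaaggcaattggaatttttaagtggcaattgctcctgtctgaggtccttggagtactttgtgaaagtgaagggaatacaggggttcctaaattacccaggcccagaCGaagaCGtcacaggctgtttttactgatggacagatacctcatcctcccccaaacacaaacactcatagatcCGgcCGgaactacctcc
RefSeq gives 3 *Robo2* windows, and the one shown adjoins the start of the GENCODE gene. The *Robo2* window shown was 65.6% G or C with 14 CG dinucleotides, a number that 29.4% of the 32851 RefSeq upstream windows of this length reach, while the other 2 were 53.2% and 44.8% G or C with 8 and 4. The *Sema3d* window was 46.8% G or C with 4, which 62.2% of windows reach, against medians of 52.4% and 6 over all windows. Neither window held the GLI site TGGGTGGTC, the HOX13 site CCAATAAA or the SMAD sites GGCGCC and GTCTAGAC on either strand. Over all windows these letters occurred in 0.225%, 1.02%, 9.59% and 0.167%, and among the members' windows the single match was GGCGCC in that of *Unc5c*. The TATA box letters TATAAA, present in 12.4% of all windows, were found among the members in that of *Slit2*. A match or its absence describes these letters in this window.

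The members differed in the lineage where they were highest. *Slit2*, a ligand of both Robo receptors, was highest in muscle progenitors, cells that migrate from the somites into the limb bud, at 61.9 ± 17.8 CPM in Wt (SD, n = 3) against 16 ± 1.98 CPM in mesenchyme. The lowest of all 9 muscle progenitor libraries, 46.1 CPM, exceeded the highest mesenchymal one of 18.7 CPM, while Wt ectoderm, at 21.8 ± 6.2 CPM (n = 2), overlapped with mesenchyme. *Nrp1*, the co-receptor of SEMA3A and VEGF, was highest in endothelium, at 247 and 210 CPM in the 2 Wt libraries that could be measured, 208 and 196 CPM in *E1C8*Δ/Δ and 249, 211 and 273 CPM in *E1C5*Δ/Δ. Mesenchymal *Nrp1* lay at 24.2 to 40.5 CPM and did not overlap with endothelium. *Nrp2*, a co-receptor shared by several class 3 semaphorins and VEGFC, was at 141 ± 4.83 CPM (n = 2) in Wt endothelium and 103 ± 23.2 CPM (n = 3) in Wt mesenchyme. *Sema3d* and *Sema3a* were highest in ectoderm, *Sema3d* at 47.9 and 36.4 CPM and *Sema3a* at 132 and 73.4 CPM in the Wt libraries, and both were lower in Wt mesenchyme, at 2.89 to 5.16 CPM for *Sema3d* and 35.8 to 48.0 CPM for *Sema3a*. Among lineages *Ntn1* was also highest in ectoderm, at 12.4 ± 0.98 CPM (n = 2) against 5.48 ± 0.81 CPM (n = 3) in Wt mesenchyme, without overlap. These orders set ectoderm against mesenchyme as a whole. The *Emx2* gate, 1 of the domain gates of mesenchyme, held more *Ntn1* than ectoderm, a Wt mean of 37.0 CPM. For *Sema3a* this gate had a Wt mean of 94.2 CPM, near the 103 CPM of ectoderm. *Robo2* was highest in mesenchyme, at 120 ± 13.3 CPM against 14.6 ± 3.5 CPM in muscle progenitors. *Robo1* did not separate muscle progenitors, endothelium and mesenchyme, whose Wt means were 44.6, 42.3 and 40.6 CPM and whose neighbouring Wt libraries overlapped.

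Erythroid cells, which are not expected to express these genes, served as the level that free RNA gives. Among erythroid cells thinned to 10000 UMIs, 0 to 6.32% had a UMI of a given member in the 7 libraries measured, the highest share being *Nrp2* and the next *Robo2* at up to 5.75%. The share of mesenchymal cells with a UMI was above this for *Robo2*, 41.0 to 58.5%, for *Nrp2*, 26.8 to 35.6%, and for *Slit3*, 19.3 to 27.9%. It was 1.27 to 5.02% for *Sema3d* and 3.18 to 5.81% for *Ntn1*, against up to 1.27% and 1.22% for the same genes in erythroid cells. The erythroid gate's median depth per cell was 18074 to 39408 UMIs and that of mesenchyme 17049 to 49505 before thinning.

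Within mesenchyme the members differed in the gate where they were highest. *Ntn1* was at 39.8 and 34.2 CPM in the 2 measurable Wt libraries of the *Emx2* gate (UMIs of *Emx2* and *Sox9*), at 22.5 and 25 CPM in *E1C8*Δ/Δ and at 29.6, 31.1 and 26.2 CPM in *E1C5*Δ/Δ. In every other mesenchymal gate its Wt mean was 7.02 CPM or less. In the mutants, which were not used to order the gates, the *Emx2* gate exceeded the core chondrogenic gate by 1.55 ± 0.42 on the log2 scale (SD), in 5 of 5 libraries. The exact sign-flip permutation test gave a two-sided p of 0.0625, the smallest that 5 libraries allow and 0.25 after adjustment over the 10 members.

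*Slit3* was highest in the distal gate, cells with UMIs of at least 2 of *Hoxa13*, *Hoxd13* and *Tfap2b* and none of *Shh*, where the hand plate forms. It was at 117, 90.4 and 105 CPM in Wt, 68.6 and 78.9 CPM in *E1C8*Δ/Δ and 71.2 and 78.7 CPM in *E1C5*Δ/Δ. The posterior gate came next (*Osr1* and *Tbx3* without *Shh*), and the core chondrogenic gate, at 18.9 ± 0.59 CPM in Wt, last. In the mutants the distal gate exceeded the posterior gate by 0.61 ± 0.15 on the log2 scale in 4 of 4 libraries (exact sign-flip permutation, two-sided p = 0.125, the smallest possible, adjusted p = 0.25). *Slit2* had another order, highest in the anterior proximal gate (*Pax1*), at 44.3 ± 6.6 CPM in Wt, and at 10.0 ± 0.79 CPM in the distal gate. Its position above the *Emx2* gate held in 3 of 5 mutant libraries (mean log2 difference -0.06 ± 0.57, SD, exact sign-flip permutation, p = 0.875).

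The receptors *Robo2* and *Robo1* were not ordered as their ligands. *Robo2* was highest in the core chondrogenic gate, cells with UMIs of *Sox9*, *Col2a1* and *Tbx18* that mark early cartilage, at 239 ± 24.1 CPM in Wt. The dorsoventral gate (*Osr2* and *Smoc1*) was at 215 ± 26.7 CPM and overlapped with it, and the distal gate was lowest at 23.8 ± 5.2 CPM. The core chondrogenic gate exceeded the dorsoventral gate in 3 of 5 mutant libraries (mean log2 difference 0.05 ± 0.12, exact sign-flip permutation, p = 0.5). *Robo1* ranged from 50.1 ± 9.6 CPM in the posterior gate to 20.7 ± 3.8 CPM in the distal gate, with each gate overlapping its neighbour in the order. The posterior gate exceeded the dorsoventral gate, the next in Wt, in 2 of 4 mutant libraries (mean log2 difference -0.03 ± 0.29, exact sign-flip permutation, p = 0.875). *Unc5c*, the repulsive netrin receptor, was highest in the posterior gate at 89.3, 52.4 and 77.2 CPM in Wt. It was lowest in the distal gate at 7.79 ± 1.42 CPM. The Wt libraries of the posterior gate overlapped with those of the proximal gate (*Gsc* and *Creb5*), at 50.4 ± 14.6 CPM. In the mutants the posterior gate exceeded the proximal gate by 0.35 ± 0.24 in 4 of 4 libraries (exact sign-flip permutation, p = 0.125, the smallest possible, adjusted p = 0.25).

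The neuropilins were both high in the *Shh* gate, the posterior signalling centre. *Nrp2* was at 273 ± 55 CPM (n = 2) there, 258 ± 58.4 CPM in the distal gate and 248 ± 64 CPM in the dorsoventral gate, and the Wt libraries of these 3 gates overlapped. The *Shh* gate exceeded the distal gate in 1 of 4 mutant libraries (mean log2 difference -0.26 ± 0.32, exact sign-flip permutation, p = 0.375). The proximal gate held least *Nrp2*, 11.8 ± 2.3 CPM. *Nrp1* was at 60.4 ± 22 CPM in the *Shh* gate and 56.7 ± 6.6 CPM in the peripheral gate (*Asb4* and *Msx1*), and in 5 of 5 mutant libraries the peripheral gate was the higher one (mean log2 difference -0.31 ± 0.16, exact sign-flip permutation, p = 0.0625). *Sema3a* and *Sema3d* had different gates with the highest Wt mean. *Sema3a* was at 94.2 ± 27 CPM in the *Emx2* gate and at 11.5 ± 1.1 CPM in the distal gate, while *Sema3d* was at 13.5 ± 2.97 CPM in the core chondrogenic gate with no UMI in the distal gate of any Wt library. The Wt libraries of the *Emx2* gate overlapped for *Sema3a* with those of the dorsoventral gate, at 75.9 ± 21.2 CPM, and the Wt order of these gates held in 1 of 5 mutant libraries (mean log2 difference -0.25 ± 0.23, exact sign-flip permutation, p = 0.125). For *Sema3d* the core chondrogenic gate exceeded the proximal gate in 3 of 5 (0.23 ± 0.75, exact sign-flip permutation, p = 0.4375).

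**Figure D1:**
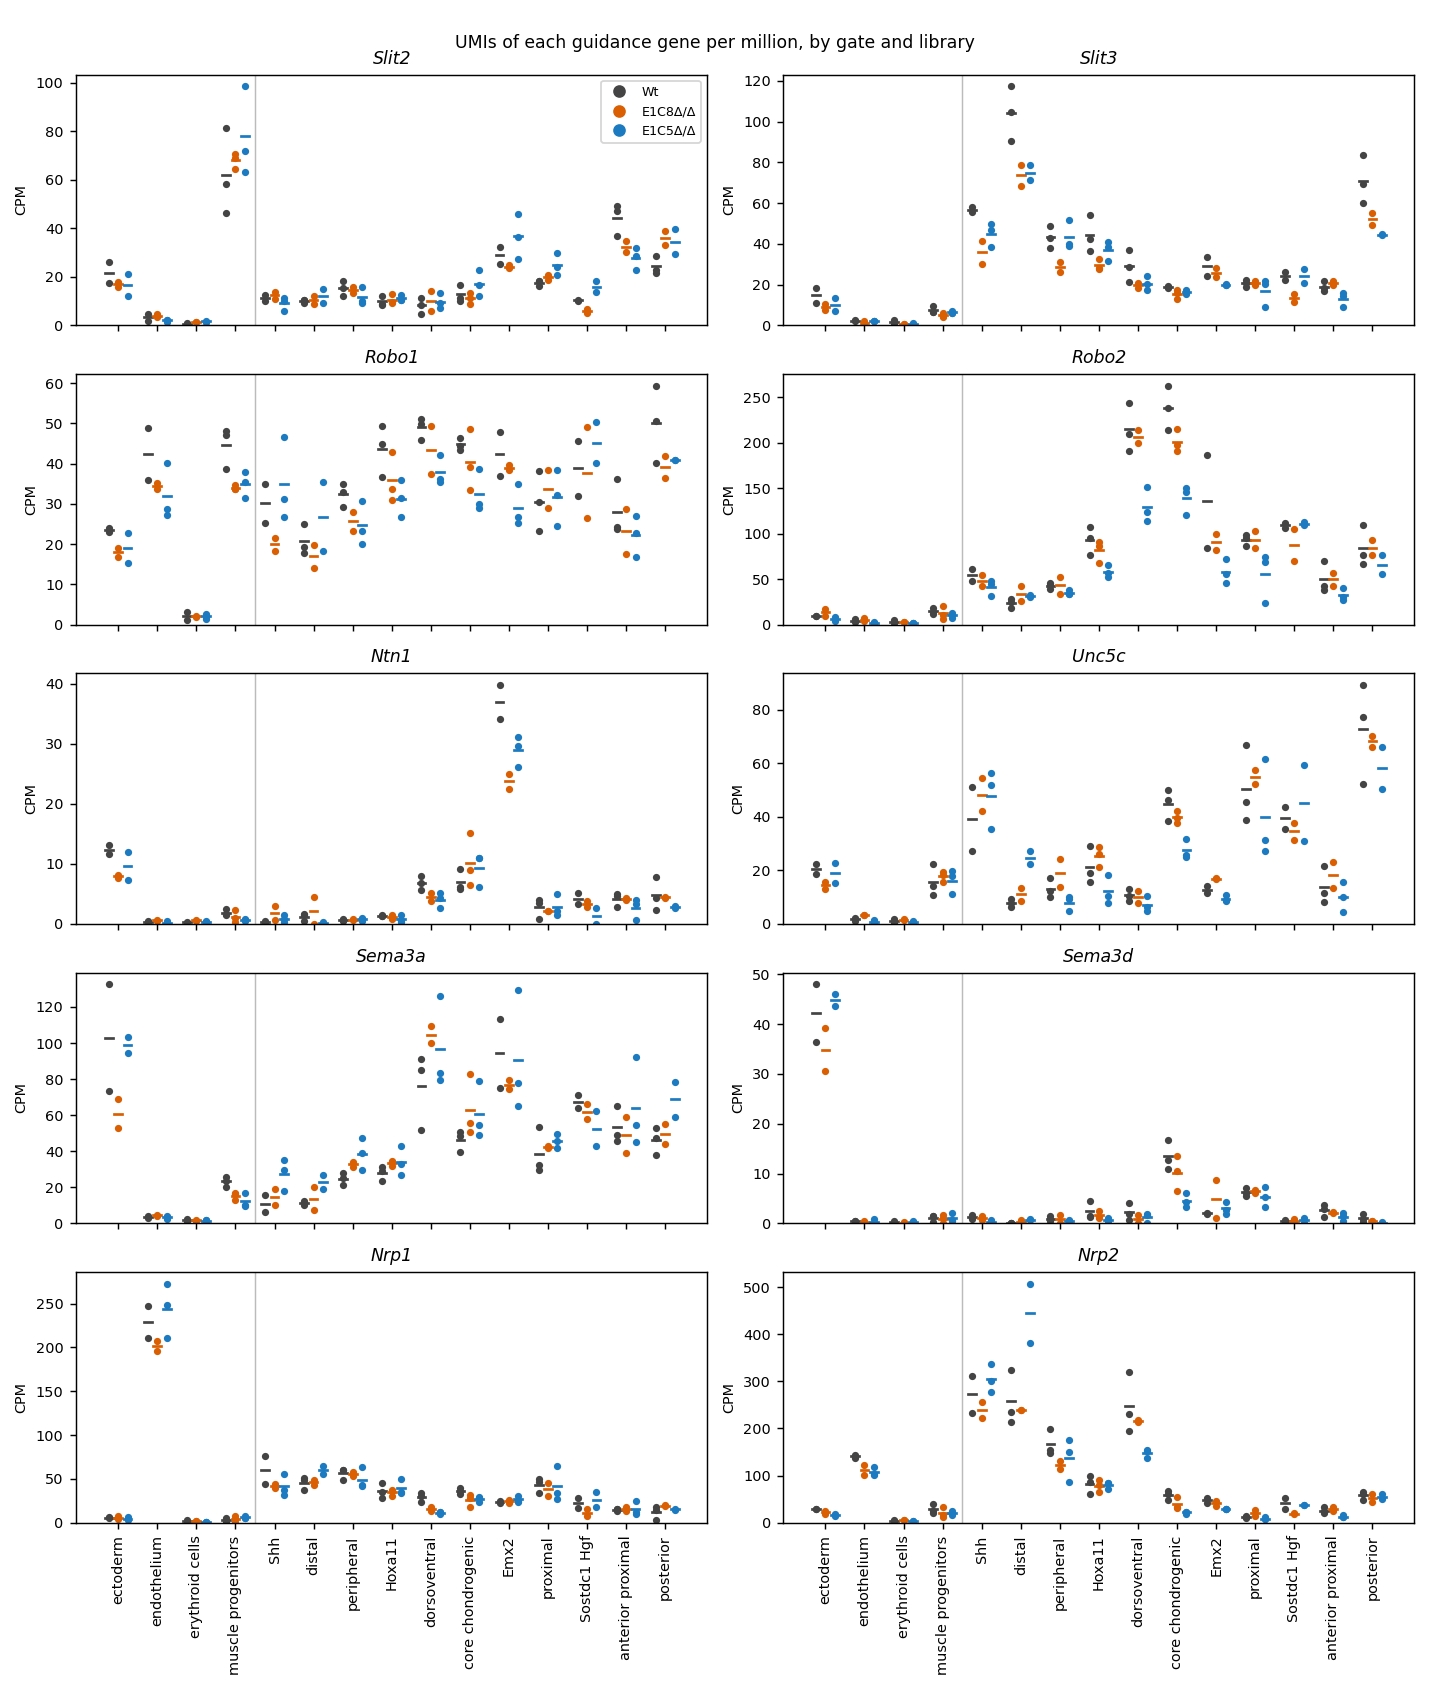
Level of each of the 10 genes in CPM (y axis) by cell gate (x axis) and genotype (colour), where points are libraries, bars are means and the vertical line separates the other lineages from the mesenchymal gates. *Nrp1* stands highest in endothelium and *Slit2* in muscle progenitors, while *Ntn1* in the *Emx2* gate has a Wt mean of 37.0 CPM.

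The genes with the most similar pattern were taken over 15 gates, namely the lineages other than mesenchyme as a whole and the mesenchymal gates. The measure was Pearson's r of the Wt means as log2(CPM + 1). *Robo2* was most like *Shox2* (r = 0.98), *Aff3* (0.96) and *Tbx18* (0.96), 2 of which are markers that defined gates. *Ntn1* was most like *Smoc2* (r = 0.95), *Slit2* like *Id2* (0.94), *Nrp2* like *Pam* (0.91) and *Nrp1* like *Gpx4* (0.95). The leading genes of *Slit3*, *Robo1*, *Unc5c*, *Sema3a* and *Sema3d* were *Gm12122* (0.97), *Anapc16* (0.96), *Tmem108* (0.90), *Bcl11b* (0.97) and *Fxyd3* (0.92). The genes were picked for the highest r among all other genes that reached 10 CPM in a gate, so high values follow in part from the choice. These r describe gates that share libraries and markers.

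In mesenchyme as a whole, 2 of the 10 members, *Robo2* and *Slit3*, were lower in the tetradactyl mutants and none was higher. Of the 16014 genes tested, none on X or Y, 2.34% passed the same test (edgeR quasi-likelihood, adjusted p under 0.05) and 1.63% passed it in the lower direction. The median log2 fold change of the members was -0.20, with 8 of 10 below 0, beside a median of -0.01 over all genes tested. These are sums over cells, so fewer cells of a type and less RNA per cell cannot be told apart. The plot of mesenchymal levels by library shows all 10 members.

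**Figure D2:**
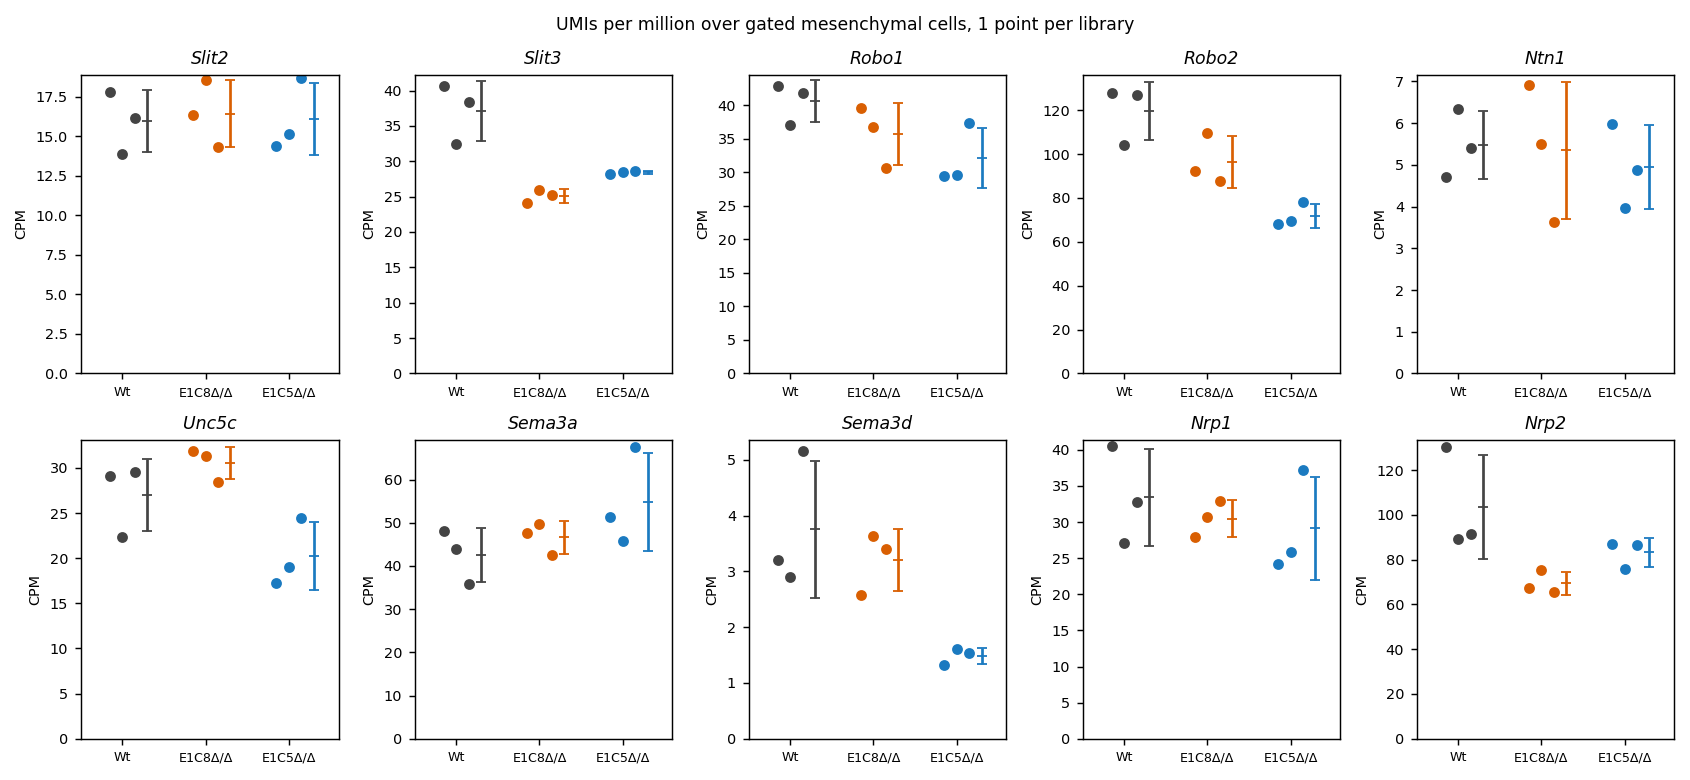
Mesenchymal level of each gene in CPM (y axis) in 3 libraries per genotype (x axis), with points for libraries and the mean ± SD beside them. *Slit3* and *Nrp2* are the members whose 6 mutant libraries all lie below the 3 Wt libraries, and *Robo2* and *Sema3d* are lowest in *E1C5*Δ/Δ.

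*Slit3* was at 40.7, 32.4 and 38.3 CPM in Wt, 24.1, 26.0 and 25.3 CPM in *E1C8*Δ/Δ and 28.2, 28.5 and 28.6 CPM in *E1C5*Δ/Δ. Every mutant library was below every Wt library, as were 3.39% of genes tested (2.54% were above). The log2 fold change against Wt was -0.46 ± 0.078 (SE, adjusted p = 0.017) for the mutants together and -0.58 ± 0.092 (adjusted p = 0.0062) for *E1C8*Δ/Δ, a comparison in which 8.66% of genes passed. For *E1C5*Δ/Δ it was -0.33 ± 0.091 and missed the threshold (adjusted p = 0.12). Within the male libraries the difference of the mutants together was -0.40 (adjusted p = 0.54), and with sex as a term -0.41 (adjusted p = 0.24). The *E1C8*Δ/Δ value was -0.51 among male libraries (adjusted p = 0.43).

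*Robo2*, a receptor for slits, was at 128, 104 and 127 CPM in Wt, 92.1, 110 and 87.5 CPM in *E1C8*Δ/Δ and 68.1, 69.5 and 77.9 CPM in *E1C5*Δ/Δ. The *E1C5*Δ/Δ libraries were below the others, a separation whose share over all genes was not counted, and *E1C8*Δ/Δ overlapped with Wt. The mutants together differed from Wt by -0.51 ± 0.084 (adjusted p = 0.016) and *E1C5*Δ/Δ by -0.68 ± 0.099 (adjusted p = 0.0089), where 1.41% of genes passed. *E1C8*Δ/Δ differed by -0.34 ± 0.099, which missed the threshold (adjusted p = 0.058). Within the male libraries the values were -0.54 (adjusted p = 0.27) for the mutants together and -0.68 (adjusted p = 0.43) for *E1C5*Δ/Δ, and with sex as a term -0.55 (adjusted p = 0.15) for the mutants together.

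Leaving out Wt library 1 or Wt library 3 ended the call of both genes in the mutants together, with adjusted p of 0.055 and 0.051 for *Slit3* and 0.0503 and 0.053 for *Robo2*. *Robo2* in *E1C5*Δ/Δ stayed called in all 9 such fits (adjusted p 0.012 to 0.047).

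*Sema3d* and *Nrp2* were called in 1 mutant each. *Sema3d* was at 3.19, 2.89 and 5.16 CPM in Wt, 2.57, 3.64 and 3.40 CPM in *E1C8*Δ/Δ and 1.32, 1.60 and 1.54 CPM in *E1C5*Δ/Δ. The *E1C5*Δ/Δ libraries were below all others, a separation whose share over all genes was not counted, while *E1C8*Δ/Δ overlapped with Wt. The log2 fold change of *E1C5*Δ/Δ was -1.26 ± 0.22 (adjusted p = 0.020) and that of *E1C8*Δ/Δ -0.19 ± 0.22 (adjusted p = 0.64). The mutants together missed the threshold (-0.72 ± 0.18, adjusted p = 0.065), with values from -0.86 to -0.46 when 1 library was left out. Among male libraries the *E1C5*Δ/Δ value was -1.11 (adjusted p = 0.71). The call was lost without *E1C5*Δ/Δ library 1 (adjusted p = 0.094) or library 3 (0.059). Since *Sema3d* is highest in ectoderm, the 6 ectoderm markers were summed in the mesenchymal cells. All 6 had UMIs in each library, and their sum was 7.04 to 8.0 CPM in Wt, 9.03 to 12.6 CPM in *E1C8*Δ/Δ and 4.50 to 6.55 CPM in *E1C5*Δ/Δ, against 1682 to 2350 CPM in ectoderm. Their part in the *Sema3d* difference was not tested.

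*Nrp2* was at 130, 89.0 and 91.3 CPM in Wt, 67.1, 75.2 and 65.7 CPM in *E1C8*Δ/Δ and 87.1, 75.9 and 86.7 CPM in *E1C5*Δ/Δ. All mutant libraries were below all Wt libraries, the nearest by under 2 CPM. *E1C8*Δ/Δ differed by -0.60 ± 0.13 (adjusted p = 0.021), *E1C5*Δ/Δ by -0.26 ± 0.13 (adjusted p = 0.43) and the mutants together by -0.43 ± 0.11 (adjusted p = 0.073). The last value ran from -0.52 to -0.24 when 1 library was left out, and was -0.24 without Wt library 1 (adjusted p = 0.21). Among male libraries the *E1C8*Δ/Δ value was -0.61 (adjusted p = 0.45). Leaving out any 1 *E1C8*Δ/Δ library ended its call, with adjusted p of 0.056 to 0.087.

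The other 6 members did not pass in any comparison of a mutant with Wt in mesenchyme. *Robo1* was at 37.0 to 42.9 CPM in Wt, 30.7 to 39.6 CPM in *E1C8*Δ/Δ and 29.4 to 37.3 CPM in *E1C5*Δ/Δ (log2 fold change of the mutants -0.25, adjusted p = 0.12). *Sema3a* was at 35.8 to 48.0, 42.4 to 49.6 and 45.7 to 67.6 CPM (0.25, adjusted p = 0.26, and 0.13 to 0.33 without 1 library). *Nrp1* was at 27.1 to 40.5, 27.9 to 32.9 and 24.2 to 37.2 CPM (-0.15, adjusted p = 0.59). For these genes the ranges of the genotypes overlapped. *Slit2*, with 13.9 to 17.8 CPM in Wt, 14.3 to 18.6 CPM in *E1C8*Δ/Δ and 14.4 to 18.7 CPM in *E1C5*Δ/Δ, differed by 0.04 ± 0.10 (adjusted p = 0.87), and *Ntn1*, with 3.63 to 6.92 CPM over all libraries, by -0.11 ± 0.19 (adjusted p = 0.81). *Unc5c* split the mutants: it was at 29.1, 22.4 and 29.5 CPM in Wt, 31.8, 31.3 and 28.5 CPM in *E1C8*Δ/Δ and 17.3, 19.1 and 24.5 CPM in *E1C5*Δ/Δ.

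The mutants were compared with each other directly, where 8.98% of genes passed. *Unc5c* was higher in *E1C8*Δ/Δ than in *E1C5*Δ/Δ by 0.51 ± 0.11 (adjusted p = 0.021) and *Sema3d* by 1.07 ± 0.22 (adjusted p = 0.016). For both genes the lowest *E1C8*Δ/Δ library exceeded the highest *E1C5*Δ/Δ library, and the share of all genes separated this way was not counted. *Robo2* (0.34 ± 0.099, adjusted p = 0.055), *Slit3* (-0.26 ± 0.092, adjusted p = 0.098) and *Nrp2* (-0.35 ± 0.13, adjusted p = 0.12) did not pass. With sex as a term *Unc5c* and *Sema3d* stayed called (adjusted p = 0.032 and 0.024), and among single libraries left out, *Unc5c* lost its call without each *E1C8*Δ/Δ library and without *E1C5*Δ/Δ library 1 or 2 (adjusted p 0.060 to 0.090), and *Sema3d* without *E1C5*Δ/Δ library 1 or *E1C8*Δ/Δ library 2 or 3 (0.052 to 0.082).

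The same tests were then run inside the gates. Inside a gate, the share of all genes whose libraries separate by genotype was not counted. In the core chondrogenic gate 3 members were lower in the mutants together, *Nrp2*, *Robo2* and *Sema3d*, where 1.58% of genes passed. No member passed in *E1C8*Δ/Δ alone, where edgeR called 431 of 12121 genes. *Nrp2* was at 47.8, 59.9 and 67.4 CPM in Wt, 31.3, 53.9 and 33.1 CPM in *E1C8*Δ/Δ and 19.2, 23.5 and 22.7 CPM in *E1C5*Δ/Δ. The *E1C5*Δ/Δ libraries were lowest, with *E1C8*Δ/Δ between them and Wt and 1 of its libraries within the Wt range. The mutants together differed by -0.93 ± 0.15 (adjusted p = 0.0070) and *E1C5*Δ/Δ by -1.38 ± 0.19 (adjusted p = 0.0028), calls kept in all 9 fits without 1 library. *Robo2*, at 239, 215 and 263 CPM in Wt, 197, 215 and 190 CPM in *E1C8*Δ/Δ and 120, 146 and 150 CPM in *E1C5*Δ/Δ, differed by -0.49 ± 0.091 (adjusted p = 0.015) and by -0.73 ± 0.11 in *E1C5*Δ/Δ (adjusted p = 0.0040). *E1C5*Δ/Δ was below both other genotypes, and 1 *E1C8*Δ/Δ library reached the lowest Wt library. *Robo2* in the mutants together lost its call without Wt library 3 (adjusted p = 0.056).

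*Sema3d* in the core chondrogenic gate was at 12.7, 11 and 16.8 CPM in Wt, 6.47, 10.5 and 13.4 CPM in *E1C8*Δ/Δ and 3.23, 6.10 and 4.28 CPM in *E1C5*Δ/Δ. The gate held 30 cells in *E1C8*Δ/Δ library 1 and 89 in each of *E1C5*Δ/Δ libraries 1 and 2. After thinning, *Sema3d* had a UMI in few cells, 9.49 to 14.3% in Wt, 3.33 to 13.7% in *E1C8*Δ/Δ and 2.25 to 4.49% in *E1C5*Δ/Δ. Its difference was -0.88 ± 0.19 for the mutants together (adjusted p = 0.034, kept in the fits without Wt library 2, *E1C5*Δ/Δ library 2 or *E1C8*Δ/Δ library 3 and lost in 6 of 9) and -1.55 ± 0.25 for *E1C5*Δ/Δ (adjusted p = 0.0072, lost without *E1C5*Δ/Δ library 3). The ectoderm marker sum in this gate was 9.18 to 9.83 CPM in Wt, 13.2 to 15.7 CPM in *E1C8*Δ/Δ and 5.27 to 8.23 CPM in *E1C5*Δ/Δ, with up to 2 of the 6 markers at 0, and its part was not tested. *Unc5c* passed in *E1C5*Δ/Δ (-0.68 ± 0.13, adjusted p = 0.020), where 1.33% of genes passed, with 38.4 to 50.1 CPM in Wt, 37.7 to 42.4 CPM in *E1C8*Δ/Δ and 25 to 31.7 CPM in *E1C5*Δ/Δ. Its call was lost without *E1C5*Δ/Δ library 1 (adjusted p = 0.063) or library 3 (0.12). *Slit2*, *Slit3*, *Robo1*, *Ntn1*, *Sema3a* and *Nrp1* did not pass there.

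Genes that define this gate also moved. In mesenchyme *Col2a1*, a cartilage collagen, differed by -1.06 in *E1C5*Δ/Δ (adjusted p = 0.028) and *Tbx18* by -0.75 (adjusted p = 0.020). Cells passing this gate alone were 11.7 ± 1.9% of the Wt, 9.37 ± 1.72% of the *E1C8*Δ/Δ and 5.23 ± 1.55% of the *E1C5*Δ/Δ mesenchymal cells. How far the make-up of the gate enters the differences within it was not tested. Outside all domain gates, *Robo2* was also lower in *E1C5*Δ/Δ, at 71.6, 74.7 and 83.8 CPM against 119, 94.5 and 116 CPM in Wt (-0.48 ± 0.097, adjusted p = 0.046, with 0.762% of genes passing). That call was lost in 8 of 9 fits, the exception being the one without Wt library 2.

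**Figure D3:**
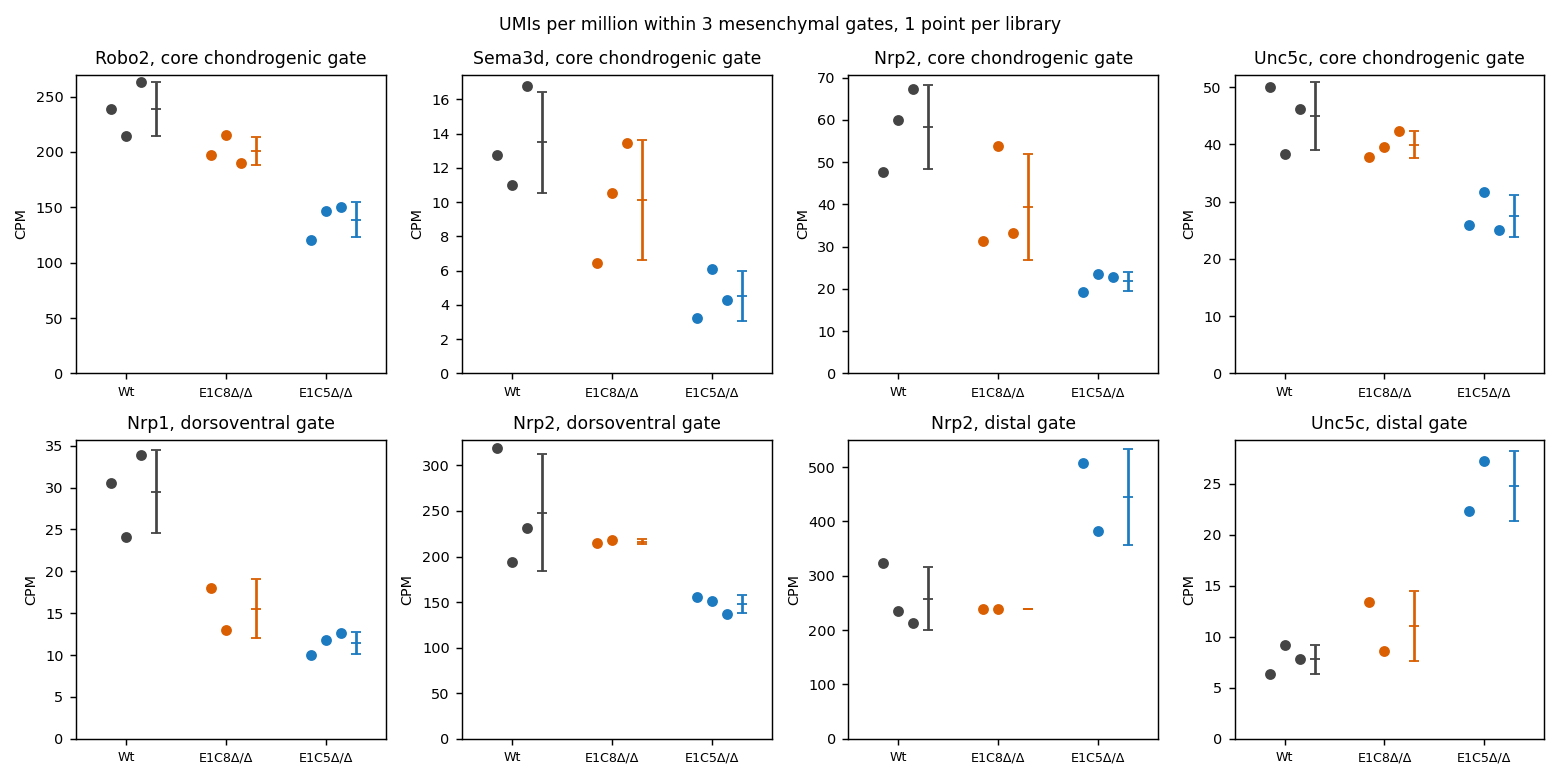
Levels in CPM (y axis) of members in the core chondrogenic, dorsoventral and distal gates, by library of each genotype (x axis), with points for libraries and the mean ± SD beside them. In the core chondrogenic gate *Nrp2* falls from 58.4 CPM in Wt to 21.8 CPM in *E1C5*Δ/Δ on average, and in the dorsoventral gate *Nrp1* is lower in all 5 mutant libraries.

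In the dorsoventral gate *Nrp1* was lower in the mutants together, *Nrp2* and *Robo2* passed in *E1C5*Δ/Δ, and no member passed in *E1C8*Δ/Δ, where edgeR called 30 of 9849 genes. *Nrp1* was at 30.5, 24.1 and 33.9 CPM in Wt, 18.0 and 13 CPM in *E1C8*Δ/Δ and 10.1, 11.8 and 12.6 CPM in *E1C5*Δ/Δ, while library 1 of *E1C8*Δ/Δ had too few cells. In the same order, these libraries held 220, 207 and 23, then 56 and 44, then 66, 28 and 115 cells of the gate. All 5 mutant libraries were below the Wt libraries, and the share of all genes separated this way in the gate was not counted. The difference was -1.07 ± 0.18 (adjusted p = 0.016) against a background of 0.325% of genes passing. The call was lost without *E1C8*Δ/Δ library 2 or library 3. The difference of *E1C5*Δ/Δ was -1.29 ± 0.20 (adjusted p = 0.0046). The 6 markers of endothelium, where *Nrp1* is highest, summed in the gate to 3.27 to 6.46 CPM in Wt, 4.34 to 4.75 CPM in *E1C8*Δ/Δ and 1.09 to 2.99 CPM in *E1C5*Δ/Δ, with up to 5 of 6 at 0, against 2431 to 2834 CPM in endothelium, and their part in the *Nrp1* difference was not tested. *Nrp2* (-0.71 ± 0.16, adjusted p = 0.043) and *Robo2* (-0.69 ± 0.13, adjusted p = 0.017) passed in *E1C5*Δ/Δ, where 0.802% of genes did. *Nrp2* lay at 194 to 319 CPM in Wt, 215 and 218 CPM in *E1C8*Δ/Δ and 137 to 155 CPM in *E1C5*Δ/Δ, and its call was kept in 1 of 8 fits, that without Wt library 2. *Robo2* lay at 191 to 244 CPM in Wt, 214 and 199.9 CPM in *E1C8*Δ/Δ, inside the Wt range, and 114 to 152 CPM in *E1C5*Δ/Δ, and lost its call without Wt library 1 (0.055) or *E1C5*Δ/Δ library 1 (0.11) or 2 (0.063). The gate's own marker *Osr2* differed by -1.92 in mesenchyme (adjusted p = 0.0037). Cells passing this gate alone were 4.27 ± 1.15% of the Wt, 0.805 ± 0.26% of the *E1C8*Δ/Δ and 2.15 ± 0.35% of the *E1C5*Δ/Δ mesenchymal cells.

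*Unc5c* rose in 1 gate, the distal one, in *E1C5*Δ/Δ. It was at 6.35, 9.18 and 7.85 CPM in Wt, 13.5 and 8.60 CPM in *E1C8*Δ/Δ and 22.3 and 27.2 CPM in *E1C5*Δ/Δ. Both *E1C5*Δ/Δ libraries were above all others (1.64 ± 0.25, adjusted p = 0.014, with 0.402% of genes passing), a separation whose share over all genes was not counted. Those libraries had 21 and 66 cells in the gate, and without *E1C5*Δ/Δ library 3 the adjusted p was 0.26. When called doublets were kept, the difference was 0.87 (adjusted p = 0.32). *Nrp2* in the same gate was at 214 to 324 CPM in Wt, 238 and 239 CPM in *E1C8*Δ/Δ and 382 and 507 CPM in *E1C5*Δ/Δ, and missed the threshold (0.78 ± 0.18, adjusted p = 0.097). The gate markers *Hoxa13* and *Tfap2b* differed by -1.19 (adjusted p = 0.018) and -2.12 (adjusted p = 0.00060) in mesenchyme. Cells passing this gate alone were 3.35 ± 0.82% of Wt and 0.989 ± 0.16% of *E1C5*Δ/Δ mesenchymal cells.

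*Slit3* and *Nrp2* were called further in *E1C8*Δ/Δ. In mesenchyme outside all domain gates *Slit3* was at 38.7, 30.8 and 38.3 CPM in Wt and 23.2, 24.4 and 23.4 CPM in *E1C8*Δ/Δ (-0.61 ± 0.10, adjusted p = 0.0066), where 9.2% of genes passed. Its level in *E1C5*Δ/Δ was 25 to 27.3 CPM. All mutant libraries were below Wt, and the share of all genes separated this way in these cells was not counted. The mutants together differed by -0.51 ± 0.085 (adjusted p = 0.019, with 1.21% of genes passing). The latter call was lost without Wt library 1 or 3 or *E1C8*Δ/Δ library 2 (adjusted p 0.053 to 0.067). *Nrp2* in the same cells was at 57.0 to 71.5 CPM in *E1C8*Δ/Δ and 77.9 to 100 CPM in Wt (-0.41 ± 0.12, adjusted p = 0.048), a call kept in 2 of 9 fits, those without Wt library 3 or *E1C5*Δ/Δ library 3. *Slit3* also passed in the *Hoxa11* gate, cells of the forearm level (-0.62 ± 0.15, adjusted p = 0.031, with 4.45% of genes passing, lost without Wt library 1 or 2 or any *E1C8*Δ/Δ library), with 36.5 to 53.9 CPM in Wt and 27.7 to 32.3 CPM in *E1C8*Δ/Δ. *Nrp2* passed in the *Sostdc1* *Hgf* gate (-1.13 ± 0.28, adjusted p = 0.046, with 2% of genes passing), where it was at 29.9 and 52.1 CPM in Wt and 18.9 and 19.7 CPM in *E1C8*Δ/Δ, and was lost without Wt library 2 (-0.57, adjusted p = 0.45) or either *E1C8*Δ/Δ library (0.16 and 0.26). Over these fits the value ran from -1.43 to -0.57.

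Outside mesenchyme a single member was called. *Sema3a* in muscle progenitors was at 25.9, 20.4 and 23.5 CPM in Wt, 16.9, 16.2 and 12.7 CPM in *E1C8*Δ/Δ and 9.84, 9.89 and 16.8 CPM in *E1C5*Δ/Δ. All 6 mutant libraries were below Wt, and the share of all genes separated this way in these cells was not counted. The difference was -0.75 ± 0.15 for the mutants together (adjusted p = 0.030, with 1.51% of genes passing) and -0.85 ± 0.18 for *E1C5*Δ/Δ (adjusted p = 0.028, with 1.29% passing). Mesenchymal markers, which mark cells richer in *Sema3a*, summed in these cells to 89.1 to 150.3 CPM in Wt, 132 to 270 CPM in *E1C8*Δ/Δ and 111 to 132 CPM in *E1C5*Δ/Δ, with none of the 6 at 0. The call for the mutants together was kept in 2 of 9 fits, those without Wt library 2 or *E1C5*Δ/Δ library 3, and it was lost when called doublets were kept (-0.53, adjusted p = 0.080). The *E1C5*Δ/Δ call was kept in 5 of 9 fits and lost without Wt library 1 (adjusted p = 0.10) or 3 (0.070) or *E1C5*Δ/Δ library 1 (0.13) or 2 (0.096), and with doublets kept (-0.58, adjusted p = 0.11). *Slit2*, which was higher in these cells than in other lineages, was at 46.1 to 81.3 CPM in Wt, 64.4 to 70.6 CPM in *E1C8*Δ/Δ and 63.3 to 98.5 CPM in *E1C5*Δ/Δ, with overlapping ranges. In ectoderm and endothelium edgeR called at most 1 of 10571 and 4 of 10640 genes against Wt, so the absence of members among them says nothing about the members. Within the male libraries none of the 18 called gate differences that could be fitted passed (adjusted p 0.088 to 0.83), and 2 more could not be fitted. The sizes changed most for *Sema3d* in the core chondrogenic gate, -0.50 for the mutants together and -1.05 for *E1C5*Δ/Δ, and for *Unc5c* there, -0.44 in *E1C5*Δ/Δ.

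Within gates the difference between the mutants was tested as well. In the core chondrogenic gate, where 3.64% of genes passed, *Sema3d*, *Nrp2*, *Unc5c* and *Robo2* were higher in *E1C8*Δ/Δ than in *E1C5*Δ/Δ, by 1.34 ± 0.26 (adjusted p = 0.016), 0.89 ± 0.20 (0.025), 0.53 ± 0.14 (0.047) and 0.48 ± 0.11 (0.029). *Unc5c* also differed in the *Hoxa11* gate by 0.91 ± 0.24 (adjusted p = 0.040, with 5.29% of genes passing) and in the peripheral gate by 1.20 ± 0.28 (adjusted p = 0.046, with 2.46% passing). *Sema3d* differed outside all domain gates by 1.04 ± 0.20 (adjusted p = 0.010, with 9.3% passing).

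The other genes of these pathways were taken from lists of 67 further ligands, receptors and intracellular partners, of which 61 were tested in mesenchyme. None was higher in the mutants together and 3 were lower, *Sema6a*, *Plxna4* and *Rgmb*, beside the 2 members called and the 2.34% of all genes that passed, 1.63% in the lower direction. The median of the 61 was -0.10, with 39 below 0. *Sema6a*, a membrane-bound semaphorin, was at 44.7 to 52.5 CPM in Wt, 33.7 to 38.9 CPM in *E1C8*Δ/Δ and 32.1 to 35.7 CPM in *E1C5*Δ/Δ (-0.43 ± 0.069, adjusted p = 0.012). *Plxna4*, a plexin that transduces class 3 and class 6 semaphorin signals, was at 5.87 to 5.97, 4.03 to 5.08 and 3.29 to 4.14 CPM (-0.56 ± 0.10, adjusted p = 0.022). *Rgmb*, a BMP co-receptor and neogenin ligand, was at 15.6 to 16.9, 12.7 to 15.2 and 9.04 to 12.1 CPM (-0.43 ± 0.084, adjusted p = 0.029). For all 3 genes the mutant libraries lay below the Wt libraries. Within the male libraries the 3 were at -0.61 to -0.43 and none passed (adjusted p 0.32 to 0.46), and with sex as a term none passed (adjusted p 0.10 to 0.18).

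By list, 1 of 17 semaphorins, 1 of 7 plexins and 1 of 12 netrins, netrin receptors and RGM ligands tested were lower in the mutants together, and none of 7 Slit and Robo relatives, 12 intracellular effectors and 6 VEGF partners passed. In *E1C8*Δ/Δ 1 gene was higher, *Vegfa* (0.57 ± 0.15, adjusted p = 0.035), the endothelial growth factor that neuropilins bind, and 4 were lower, *Plxna1* (-0.52), *Sema6a* (-0.43), *Farp1* (-0.42) and *Plxna4* (-0.47). These are 5 of the 61 genes, where 8.66% of all genes passed, and the share is near that background. In *E1C5*Δ/Δ the 3 lower genes were *Rgmb* (-0.62), *Plxna4* (-0.64) and *Sema6a* (-0.44), and none was higher, 3 of the 61 where 1.41% of all genes passed. Within the male libraries none of these passed, with adjusted p of 0.40 to 0.56 for *E1C8*Δ/Δ and 0.40 to 0.84 for *E1C5*Δ/Δ, and with sex as a term none passed (adjusted p 0.073 to 0.22 and 0.051 to 0.18). *Vegfa* was at 0.50 in the male libraries and 0.39 with the sex term. Both mutants were set against the same Wt libraries. Between the mutants, 5 of the 61 differed where 8.98% of all genes passed, again near the background. In *E1C8*Δ/Δ *Farp1* (-0.40, adjusted p = 0.029), *Dpysl5* (-0.56, 0.031) and *Plxna1* (-0.38, 0.032) were lower than in *E1C5*Δ/Δ, and *Rgmb* (0.38, 0.040) and *Sema7a* (0.82, 0.045) were higher.

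**Figure D4:**
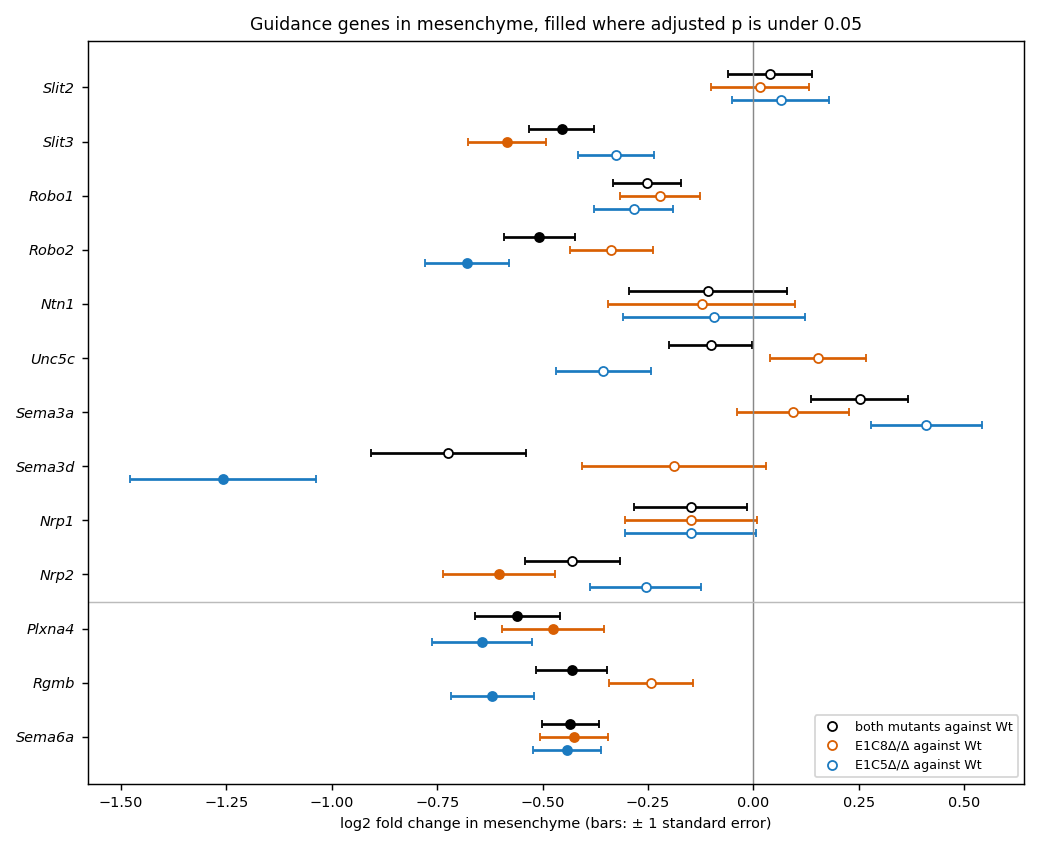
Log2 fold change against Wt in mesenchyme (x axis) of the 10 members and, under the line, of the 3 other guidance genes called in the mutants together (y axis), for each mutant and both together, with bars for ± 1 standard error and filled points where the adjusted p was under 0.05. *Sema3d* in *E1C5*Δ/Δ lies farthest from 0, at -1.26, and *Plxna4* and *Sema6a* are called in all 3 comparisons.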

How the data were processed

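Forelimb bud pairs of 9 embryos, 3 per genotype, were profiled with droplet 3′ single-cell RNA-seq. The authors deposited raw UMI counts per gene and barcode, and per the labels these were made with Cell Ranger 6.0.1 on mm10, with Seurat 4.3.0.1 downstream. As in the study's methods, barcodes needed over 2500 genes, under 200000 UMIs and under 10% mitochondrial UMIs. Doublets were called by nearest neighbours among simulated doublets, at 0.8% per 1000 barcodes. The rate was set from the barcodes before filtering, so removal was uneven. It ran from 12 of 604 filtered cells in *E1C8*Δ/Δ library 1 to 2068 of 9076 in *E1C8*Δ/Δ library 3. Libraries shared 2 to 172 barcodes, at most 28 after the filters. Total UMIs in the cells kept ran from 21157280 to 304350104 per library, and those in mesenchyme from 15170334 to 239648439.

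UMI counts were summed per library and gate. Genes were tested with edgeR 4.0.16 (quasi-likelihood, TMM, filterByExpr, all 9 libraries, genotype as the factor). Benjamini-Hochberg adjustment ran over all genes tested, with a threshold of 0.05. The 4 non-mouse transgene rows and 1809 genes on X or Y were left out. A gate was fitted with at least 20 cells per library and 2 libraries per genotype. Ridge ectoderm, megakaryocytes, myeloid cells and neural crest glia had too few cells. A lone male mutant library in the male fits was assumed to vary like the others. On simulated counts of the mutants against Wt in mesenchyme, 74% of 200 genes changed by 1 on the log2 scale were recovered, with 6 false calls among 16014 genes. Both mutants were changed alike there, so recovery of smaller changes, or of changes in 1 mutant, was not measured. The members and lists were chosen with earlier results of these data known. The named genes were the members, the other guidance genes called, the 3 genes most alike each member in Wt and *Grem1*. Promoter windows came from RefSeq, with none used for *Ntn1*. Libraries of a genotype are separate embryos. Same-numbered libraries of different genotypes were not paired: their deviations correlated at -0.16 to 0.12. Alternatives were DESeq2 1.42.0, RLE scaling, no filter, a replicate block, a sex term, kept doublets, other gates and leaving out each library.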

Additional observations from a re-analysis of the deposited data

Results flagged for a closer look

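These results were picked out because the 2 deletions differed from each other in a direct edgeR test (*E1C8*Δ/Δ minus *E1C5*Δ/Δ, log2 scale). *Unc5c*, the netrin receptor, differed in 4 sets of cells, by 0.51 in mesenchyme, 0.53 in the core chondrogenic gate, 0.91 in the *Hoxa11* gate and 1.20 in the peripheral gate. *Sema3d* differed in 3, by 1.07 in mesenchyme, 1.34 in the core chondrogenic gate and 1.04 in mesenchyme outside the domain gates. *Nrp2* differed by 0.89 and *Robo2* by 0.48 in the core chondrogenic gate. All 9 called values were higher in *E1C8*Δ/Δ. Of all genes tested, 8.98% passed in mesenchyme, 3.64% in the core chondrogenic gate, 5.29% in the *Hoxa11* gate, 2.46% in the peripheral gate and 9.3% outside the domain gates. Over all 10 members the median difference in mesenchyme was -0.015, with 6 of 10 below 0, so the members as a whole had no common direction. Of the 5 other guidance genes that differed in mesenchyme, 3 were lower in *E1C8*Δ/Δ and 2 higher. The gates share cells with mesenchyme as a whole, so they are not independent of each other.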

How the results depend on the processing

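Genes called in mesenchyme numbered 375 for the mutants together, 1387 for *E1C8*Δ/Δ and 226 for *E1C5*Δ/Δ. In the same order, DESeq2 called 927, 2098 and 570, a sex term left 4, 135 and 13, and the male libraries alone, a fit chosen after the data were seen, 21, 26 and 20. Without the filter *E1C5*Δ/Δ had 383. Leaving out 1 library gave 111 to 673, 342 to 1854 and 75 to 278.

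The replicate block gave 94, 674 and 113 called genes, with *Slit3* at -0.45 (adjusted p = 0.061) and *Robo2* at -0.51 (0.056) for the mutants together, although the numbers pair no libraries (1 of 9 correlations over 0.1). *Slit3* was -0.41 with the sex term, -0.40 in male libraries and -0.52 to -0.39 without 1 library, and *Robo2* -0.55, -0.54 and -0.57 to -0.47, and calls were lost as given above. *Sema3d* and *Nrp2* passed with DESeq2 (-0.72 and -0.43, adjusted p = 0.0067 and 0.012) and without the filter (-0.72 and -0.43, 0.034 and 0.037).

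*Slit2* changed sign with the sex term (-0.052), in male libraries (-0.042), with gates from all UMIs (-0.030) and without 1 library (-0.030 to 0.12). So did *Ntn1* (-0.22 to 0.050) and *Nrp1* (-0.26 to 0.0029) without 1 library. None of these 3 had a call. The order of leading gates turned for *Sema3d* with thinned cells (-0.22), for *Robo1* (0.080) and *Robo2* (-0.049) with cells counted in each gate they passed, and without 1 library for *Robo1* (-0.10 to 0.11) and *Slit2* (-0.19 to 0.17). The causes were not tested. Of the member differences in mesenchyme for the mutants together, 158 alternative values kept direction and side of the threshold, 10 lost the call, 4 gained it and 8 changed sign. The 10 lost calls were all of *Slit3* or *Robo2*, the members with a call to lose. Gates with few cells and 1 lone male library per mutant limit what could be detected.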

Other observations

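Joint detection in single mesenchymal cells was counted after thinning each cell to 10000 UMIs. *Robo1* and *Robo2* were both detected in 10.81 to 21.76% of cells per library, and the product of their separate shares was 9.46 to 19.7%, lower than the joint share in 9 of 9 libraries. The ligand *Slit3* and the receptor *Robo2* were both detected in 6.97 to 14.5% of cells, below the product in 8 of 9 libraries. *Sema3a* and *Nrp1* were both detected in 5.51 to 9.13% of cells, below the product in 9 of 9. The other ligand and receptor pairs did not all go this way. *Sema3a* and *Nrp2* were both detected in 9.15 to 13.6% of cells, above the product in 8 of 9 libraries, and *Slit2* and *Robo1* in 3.01 to 5.03%, above it in 6 of 9. *Sema3d* and *Nrp1* were above it in 5 of 9 and *Ntn1* and *Unc5c* below it in 8 of 9, at joint shares of up to 1.98% and 1.52%. Of the other pairs counted, *Nrp1* and *Nrp2* were above the product in 7 of 9 libraries, *Slit2* and *Slit3* in 6 and *Sema3a* and *Sema3d* in 8. Cells of 1 library share their depth and gates, so these are descriptions with no test.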
